A study of Mus musculus with 4 samples.

Results

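The genes described here are 32 genes of endothelial identity, 29 of them marking blood vessels or endothelium in general and 3, Prox1, Lyve1 and Mmrn1, marking lymphatic vessels. They were chosen by name, and all 32 were found among the 48526 gene identifiers of the deposited table. The RNA came from mononuclear cells isolated from the lamina propria, the connective tissue of the gut mucosa, after CD4 T cells had been transferred into mice. Wild-type T cells were given for 2 samples, which the labels describe as having pronounced colitis. T cells without Hobit and Blimp-1 (double knockout, DKO) were given for the other 2, described as having mild colitis. The genotype is that of the transferred CD4 cells only. No source used here gives the host strain, its age or the deleted parts of the genes. Colitis grade and genotype of the transferred cells go together in all 4 samples, so their parts cannot be told apart.

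Endothelial cells line blood and lymphatic vessels. They are held together by VE-cadherin and claudins, carry sialomucins on the side facing the vessel lumen, and owe their identity to transcription factors of the ETS and SoxF families. Lymphatic endothelium is set apart by Prox1, the factor that directs lymphatic fate. In the gut, capillaries under the epithelium have fenestrae closed by diaphragms, and post-capillary venules are where leukocytes leave the blood. The preparation is a mixture of cell types, and in such a sample more cells of a type and more RNA per cell cannot be told apart.

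The values are regularized log2 expression (rlog), a scale that shrinks differences between samples, and does so most strongly in genes with few reads. Sequencing depth is unknown. Sample medians over the 13528 tested genes were 8.33 to 8.35. Wild-type values of Zfp683, the gene of Hobit, were 3.53 and 3.81 and DKO values 3.29 and 3.38, under the minimum for testing. For Prdm1, the gene of Blimp-1, they were 11.53 and 11.43 against 11.37 and 11.43 (log2 fold change -0.077, limma adjusted p = 0.617). Both can be transcribed in other cells of the sample, so these values do not check the labels. Nothing in the labels says that samples of a group came from separate animals, so p-values measure only the spread between these samples.

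Endothelial genes were higher in the DKO samples, with few exceptions. Of the 32 genes, 30 had a mean rlog of at least 4 and were tested, and 28 of these rose in DKO at an adjusted p under 0.05 in limma, while 0 fell (0 also at an unadjusted p under 0.05). Over all 13528 genes tested, 9.92% were called higher and 4.85% lower. The median log2 fold change (DKO less wild type, in rlog) was 1.10 over the 30 tested members and -0.022 over all tested genes. Fold changes ran from 0.15 for Acvrl1 to 1.69 for Podxl, and 26 of the 30 lay above 0.65, the 95th percentile of all tested genes. In 31 of the 32 genes both DKO samples lay above both wild-type samples, an arrangement found in 25.0% of all tested genes. The exception was Acvrl1. The count of 28 was found again in each of the 4 fits that left out 1 sample. With no filter on low values, where 25186 genes entered the fit, 6 of the 32 passed (Emcn, Podxl, Mmrn2, Robo4, Ptprb and Adgrl4) against 0.719% of all genes, although 29 still had an unadjusted p under 0.05.

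**Figure D1:**
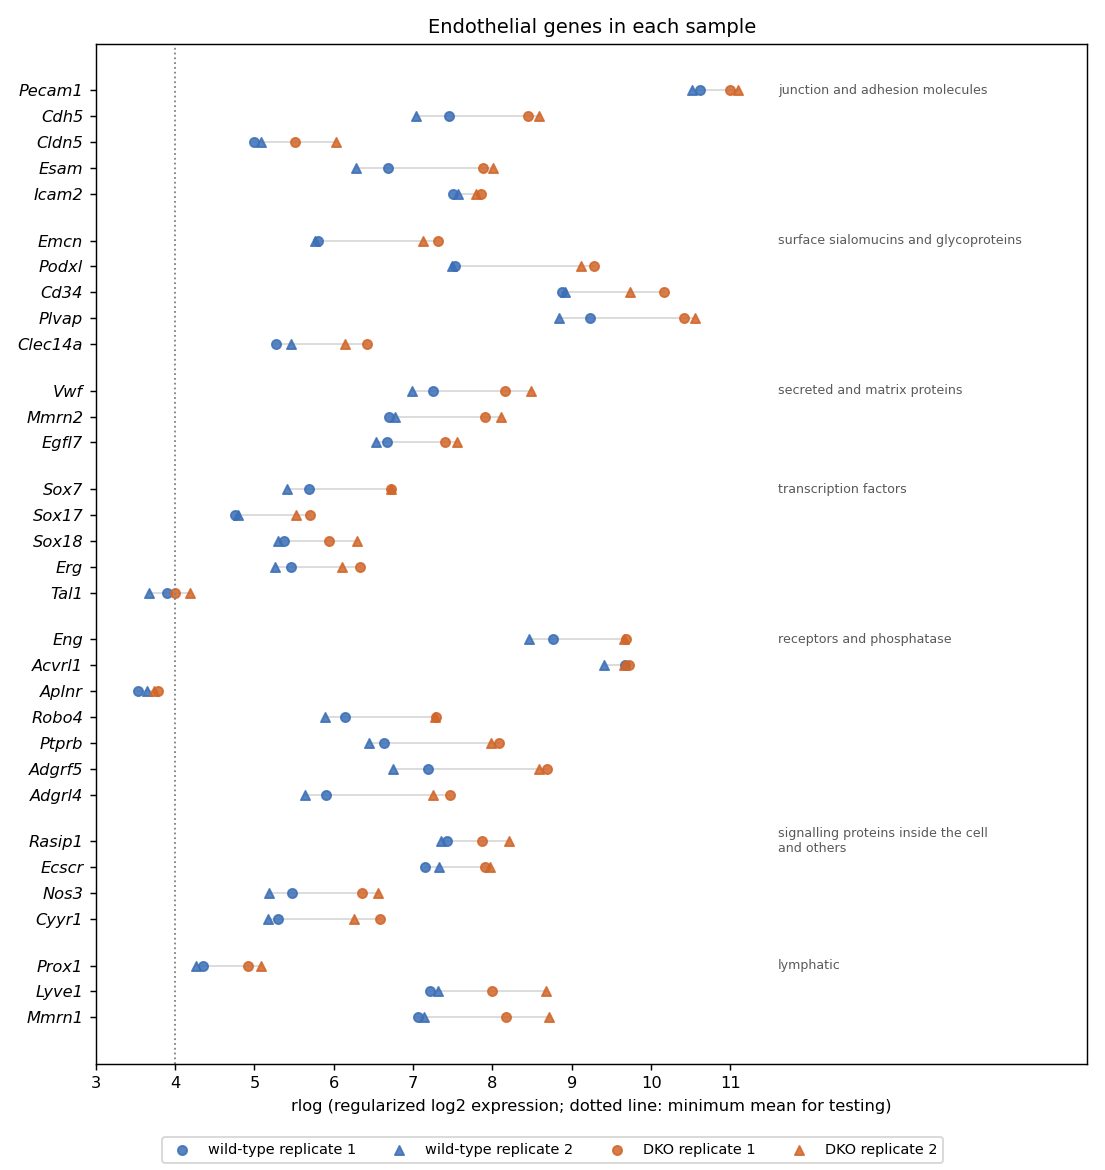
Rlog (horizontal axis, log2 scale) of the 32 endothelial genes in each sample, grouped by role, with circles for replicate 1 and triangles for replicate 2 of each group, and a dotted line at the minimum mean of 4 for testing. The orange DKO points lie to the right of both blue wild-type points in 31 of 32 genes, and Pecam1, Icam2 and Acvrl1 have narrow gaps at high or moderate levels.

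Among the junction and adhesion molecules, 4 of 5 rose and the amounts were uneven. Cdh5, which encodes VE-cadherin, the adherens junction protein of endothelium (GRCm38 chromosome 8, 104101625 to 104144511), had wild-type values of 7.46 and 7.04 and DKO values of 8.45 and 8.59. The wild-type samples lay further apart than the DKO samples, and the groups did not overlap. Its log2 fold change was 1.27 (SE 0.134, adjusted p = 9.61e-05), a fold of 2.42. Esam, an adhesion molecule of endothelial tight junctions, went from 6.69 and 6.28 to 7.87 and 8.01, with a log2 fold change of 1.46 (SE 0.138). Cldn5, the claudin of endothelial tight junctions, was at 4.99 and 5.08 in wild type and at 5.51 and 6.02 in DKO. It rose by 0.73 (SE 0.156, adjusted p = 0.00822), but by 0.48 without DKO replicate 2, and it did not pass after quantile normalization (0.57, adjusted p = 0.057).

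Pecam1 and Icam2 had the smallest differences of these 5 genes. Pecam1, an adhesion molecule of endothelium that leukocytes and platelets carry too, was at 10.62 and 10.52 in wild type and at 11.00 and 11.09 in DKO (SE 0.0814 on a log2 fold change of 0.48, adjusted p = 0.00204). Icam2, a ligand of the leukocyte integrin LFA-1 that is likewise not confined to endothelium, was at 7.5 and 7.57 against 7.86 and 7.80, and its difference of 0.29 (SE 0.0996) did not pass (adjusted p = 0.0793). The groups of Icam2 were nevertheless separate. These 2 genes lie 266142 bases apart on chromosome 11. Beside them, 10 genes common to leukocytes had a median log2 fold change of -0.29, with a range from -0.53 to -0.13. In limma 2 of these 10 fell (Cd52 and Arhgdib) and 0 rose. At an unadjusted p under 0.05, 6 were lower and 0 higher. Without the variance trend 4 fell, and with a robust variance 5 fell. Without DKO replicate 2, 5 of them fell, and in each other fit without 1 sample 1 fell. The part of leukocyte transcripts in the small differences of Pecam1 and Icam2 was not tested.

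All 5 surface sialomucins and glycoproteins rose, and the largest change of all members was here. Podxl, a sialomucin related to CD34 (chromosome 6, 31519488 to 31563981), had wild-type values of 7.53 and 7.49 and DKO values of 9.28 and 9.12. Replicate 2 minus replicate 1 was -0.039 in wild type and -0.168 in DKO, beside a gap of more than 1.5 between the groups. Its log2 fold change of 1.69 (SE 0.097, adjusted p = 6.02e-06, a fold of 3.22) ranked 7 among 13528 genes. Emcn, endomucin, the sialomucin of capillaries and veins, went from 5.80 and 5.76 to 7.32 and 7.12 (log2 fold change 1.44, SE 0.116). Plvap forms the diaphragms of fenestrae and was the member with the highest rlog per kilobase of exon. It was at 9.22 and 8.84 in wild type and at 10.41 and 10.55 in DKO (log2 fold change 1.45, SE 0.117, a fold of 2.73). Clec14a, a lectin-like receptor that binds the matrix protein Mmrn2, rose by 0.91 (SE 0.132).

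Cd34 is a marker that fibroblasts and mast cells share with endothelium. It was at 8.88 and 8.91 in wild type and at 10.16 and 9.74 in DKO, so that DKO replicate 1 was the higher of the pair by 0.42, a gap exceeded in size by 2.96% of all tested genes. Its log2 fold change was 1.05 (SE 0.121). All 12 fibroblast genes listed rose, all 12 were also higher in DKO replicate 1 than in DKO replicate 2, and their summed level (log2 of the sum of rlog taken as log2 values) was 15.07 to 15.12 in wild type and 15.87 to 16.14 in DKO. The part of fibroblasts in the rise of Cd34 was not tested.

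The secreted proteins rose as well, 3 of 3. Vwf, von Willebrand factor, the multimeric protein stored in endothelial granules, was at 7.25 and 6.98 in wild type and at 8.16 and 8.48 in DKO (log2 fold change 1.21, SE 0.133). Mmrn2, a matrix protein laid down around vessels, was at 6.70 and 6.77 against 7.91 and 8.10 (log2 fold change 1.27, SE 0.11). Egfl7, a secreted endothelial factor whose gene hosts the microRNA miR-126, was at 6.67 and 6.53 against 7.40 and 7.55 (log2 fold change 0.88, SE 0.113). Each of the 3 had separate groups, and Vwf had the widest gap between DKO samples.

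Platelets also carry Vwf, Mmrn1 and Pecam1. Of 13 megakaryocyte and platelet genes, 8 were under the minimum for testing, Gp9 was listed at 0 in all 4 samples, and Gp1ba and Treml1 had rlog values below 0. Of the 5 tested, 0 rose in limma (1, Itga2b, at an unadjusted p under 0.05) and Pf4 fell by 0.83 (by 0.53 without DKO replicate 1). Itga2b was at 5.46 and 5.40 in wild type and at 5.78 and 5.74 in DKO (log2 fold change 0.33, adjusted p = 0.0772). Clec1b had a log2 fold change of -0.335 (adjusted p = 0.0866). Without the variance trend 1 gene of the list rose and 1 fell. The summed level of the list was 8.49 to 8.52 in wild type and 8.21 to 8.31 in DKO. This sum is weighted to the genes of highest level, Pf4 and F2rl2, and does not describe the list as a group. Pf4 was at 6.94 and 7.21 in wild type and at 5.95 and 6.54 in DKO, and F2rl2 at 6.95 and 6.69 against 6.85 and 6.76. The part of platelets in the rises of Vwf, Mmrn1 and Pecam1 was not tested.

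All 4 transcription factors that could be tested rose, with a median log2 fold change of 0.85. Sox7, Sox17 and Sox18 form the SoxF family, which acts in arterial and lymphatic specification. Sox7 was at 5.68 and 5.41 in wild type and at 6.72 and 6.73 in DKO (log2 fold change 1.18, SE 0.124), Sox17 at 4.75 and 4.79 against 5.70 and 5.52 (0.85, SE 0.116), and Sox18 at 5.37 and 5.29 against 5.94 and 6.29 (0.78, SE 0.134). The DKO samples of Sox7 were equal to within 0.00256, and those of Sox18 were 0.35 apart. Erg, the ETS factor that maintains endothelial identity (chromosome 16, 95359169 to 95586593), was at 5.46 and 5.26 against 6.33 and 6.10 (log2 fold change 0.86, SE 0.128, adjusted p = 0.00084). Tal1, a basic helix-loop-helix factor of early endothelium and of erythroid and mast cells, was at 3.90 and 3.67 against 4.00 and 4.19, under the minimum. With no filter its difference of 0.31 did not pass (adjusted p = 0.34).

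All of these factors but Sox7 (mean rlog 6.14) had a mean rlog under 6, and shrinkage is stronger at low levels. The 8 tested members with a mean rlog between 4 and 6, among them Sox17, Sox18, Erg, Cldn5 and Prox1, had a median log2 fold change of 0.85, and the 22 with a mean of at least 6 had 1.24. All 8 of the lower members and 20 of the 22 higher ones rose. Shrinkage may enter differences in size between members of unlike level, and its part was not tested.

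Of the 6 receptors tested 5 rose. Adgrf5 and Adgrl4, adhesion G protein-coupled receptors of endothelium, ranked 8 and 10 by fold change among 13528 genes. Adgrf5 (chromosome 17, 43360451 to 43459557) was at 7.19 and 6.75 in wild type and at 8.69 and 8.59 in DKO (log2 fold change 1.67, SE 0.136, a fold of 3.18). Adgrl4 was at 5.90 and 5.64 against 7.47 and 7.25 (log2 fold change 1.59, SE 0.129). Both had their lowest value in wild-type replicate 2 and separate groups. Ptprb, the receptor phosphatase that acts on Tie2 and VE-cadherin, was at 6.63 and 6.44 against 8.08 and 7.98 (log2 fold change 1.5, SE 0.112). Robo4, a roundabout receptor that stabilises vessels, was at 6.14 and 5.88 against 7.29 and 7.28 (log2 fold change 1.27, SE 0.12). Robo4 and Esam lie 112963 bases apart on chromosome 9.

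Eng and Acvrl1 encode partners in one receptor complex, endoglin and the type I receptor ALK1, which bind circulating BMP ligands on endothelium. Eng was at 8.76 and 8.46 in wild type and at 9.69 and 9.66 in DKO (SE 0.104 on a log2 fold change of 1.06, adjusted p = 6.24e-05). Acvrl1 was at 9.68 and 9.41 against 9.72 and 9.66. Its groups overlapped, and the difference of 0.15 (SE 0.0981) did not pass (adjusted p = 0.392). It was 0.28 without wild-type replicate 1 and 0.011 without wild-type replicate 2. The difference between the 2 genes' fold changes was not tested. Aplnr, the apelin receptor of veins and growing vessels, was at 3.53 and 3.65 against 3.78 and 3.73, under the minimum, and with no filter its difference of 0.17 did not pass (adjusted p = 0.424).

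**Figure D2:**
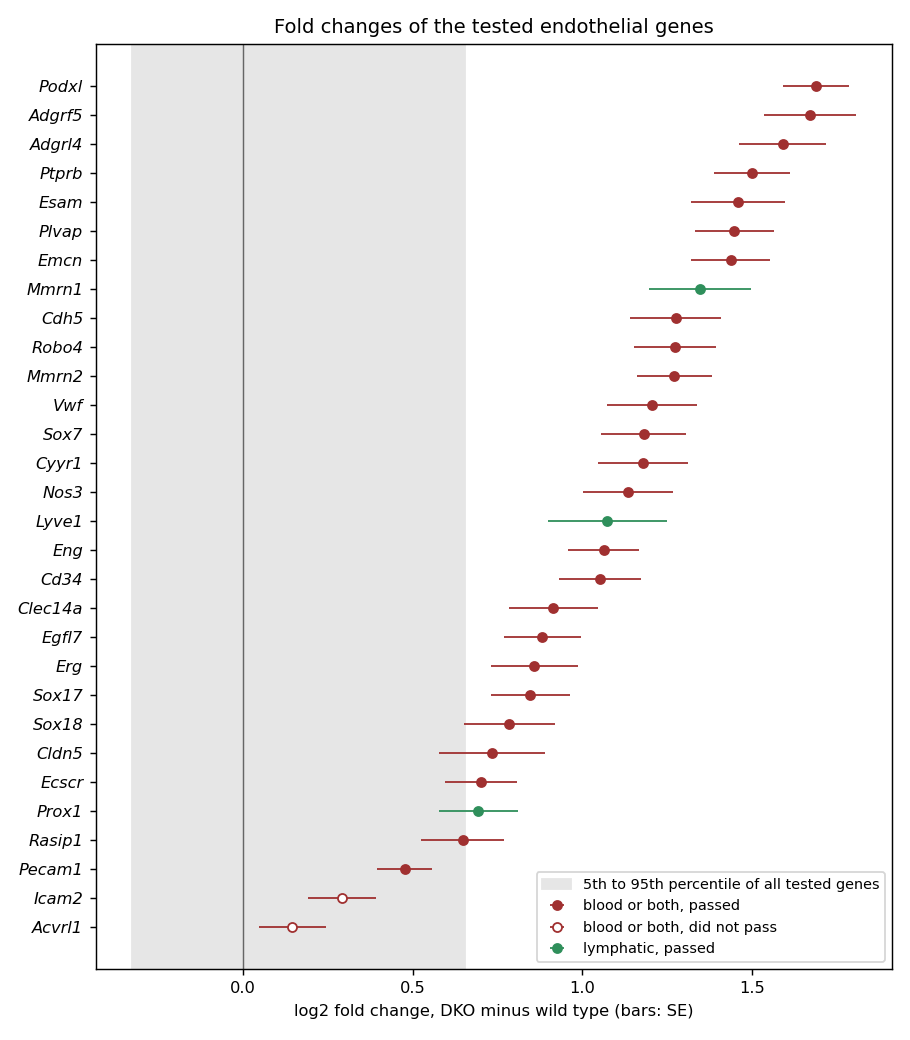
Log2 fold change (DKO minus wild type, horizontal axis) with its SE for the 30 tested endothelial genes, sorted, with lymphatic genes in green, open circles for genes that did not pass and a grey band from the 5th to the 95th percentile of all tested genes. Podxl, Adgrf5 and Adgrl4 lie at 1.69, 1.67 and 1.59, and Icam2 and Acvrl1, which did not pass, at 0.29 and 0.15.

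The remaining 4 genes of blood endothelium also rose. Nos3, the endothelial nitric oxide synthase, was at 5.47 and 5.18 in wild type and at 6.36 and 6.56 in DKO (log2 fold change 1.13, SE 0.133). Rasip1, a Ras-binding protein needed for vessel lumens, was at 7.43 and 7.35 against 7.87 and 8.20 (0.65, SE 0.121). Ecscr, a surface regulator of endothelial migration, was at 7.15 and 7.32 against 7.91 and 7.97 (0.70, SE 0.106). Cyyr1 was at 5.29 and 5.18 against 6.58 and 6.25 (1.18, SE 0.133). All 4 had separate groups. Nos3 shares 294 exon bases with Atg9b on the opposite strand. No source used here states whether counting used strand, so reads of the pair may have been mixed. Atg9b was at 6.16 and 5.56 in wild type and at 5.57 and 5.57 in DKO (log2 fold change -0.29, adjusted p = 0.316). Without wild-type replicate 1 its difference was 0.011. Rasip1 shares 654 exon bases with Izumo1 on the same strand, which was at 2.11 to 2.22 in the 4 samples.

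All 3 lymphatic genes rose, and all 3 were higher in DKO replicate 2 than in DKO replicate 1. Prox1 (chromosome 1, 190118035 to 190170714) was at 4.36 and 4.26 in wild type and at 4.92 and 5.08 in DKO (SE 0.116 on a log2 fold change of 0.69, adjusted p = 0.00176). Mmrn1, multimerin 1, a glycoprotein of lymphatic endothelium and platelets (chromosome 6, 60924976 to 60989378), was at 7.06 and 7.13 against 8.18 and 8.71 (1.35, SE 0.151, adjusted p = 0.000138). Lyve1, the hyaluronan receptor of lymphatic capillaries (chromosome 7, 110850607 to 110863239), was at 7.21 and 7.31 against 8.0 and 8.67 (1.07, SE 0.175, adjusted p = 0.00153). In each gene DKO replicate 2 was the highest sample, by 0.16, 0.53 and 0.67 over DKO replicate 1. A larger gap between the DKO samples was found in 1.18% of all tested genes for Mmrn1 and in 0.444% for Lyve1, against 34.8% for Prox1. Without DKO replicate 2 Lyve1 was at 0.74 and Mmrn1 at 1.08, and the 3 genes passed in each fit that left out 1 sample.

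The blood endothelial genes were divided between the DKO samples. Of the 29, 14 were higher in DKO replicate 2 and 15 in DKO replicate 1, with a median gap of -0.014 (DKO replicate 2 minus DKO replicate 1). Cldn5, Sox18, Rasip1 and Vwf were higher in DKO replicate 2 by 0.51, 0.35, 0.33 and 0.33. Cd34, Cyyr1 and Clec14a were lower there by 0.42, 0.33 and 0.28. In the wild-type group, 22 of the 32 genes were higher in replicate 1, against 52.0% of all tested genes. Outside the 32, 8 of the 15 genes listed as venous and capillary were higher in DKO replicate 2. Of that list, Selp, Ackr1 and Vcam1 were higher there by 0.50 each, and Car4 was lower by 0.53. A gap of that size was thus not confined to lymphatic genes. With 1 sample on each side, these gaps have no test.

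Lyve1 is also carried by macrophages around vessels. Of 11 genes of such macrophages 8 were tested. Gas6 and Igf1 rose and Mrc1 fell by 0.37, although Igf1 was lost when wild-type replicate 1 or DKO replicate 1 was left out, and Mrc1 when either of these or wild-type replicate 2 was. The summed level of the list was 11.50 to 11.59 in wild type and 11.58 to 11.72 in DKO, and Folr2 and the Cd209 genes listed were under the minimum. The part of macrophages in the rise of Lyve1 was not tested.

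**Figure D3:**
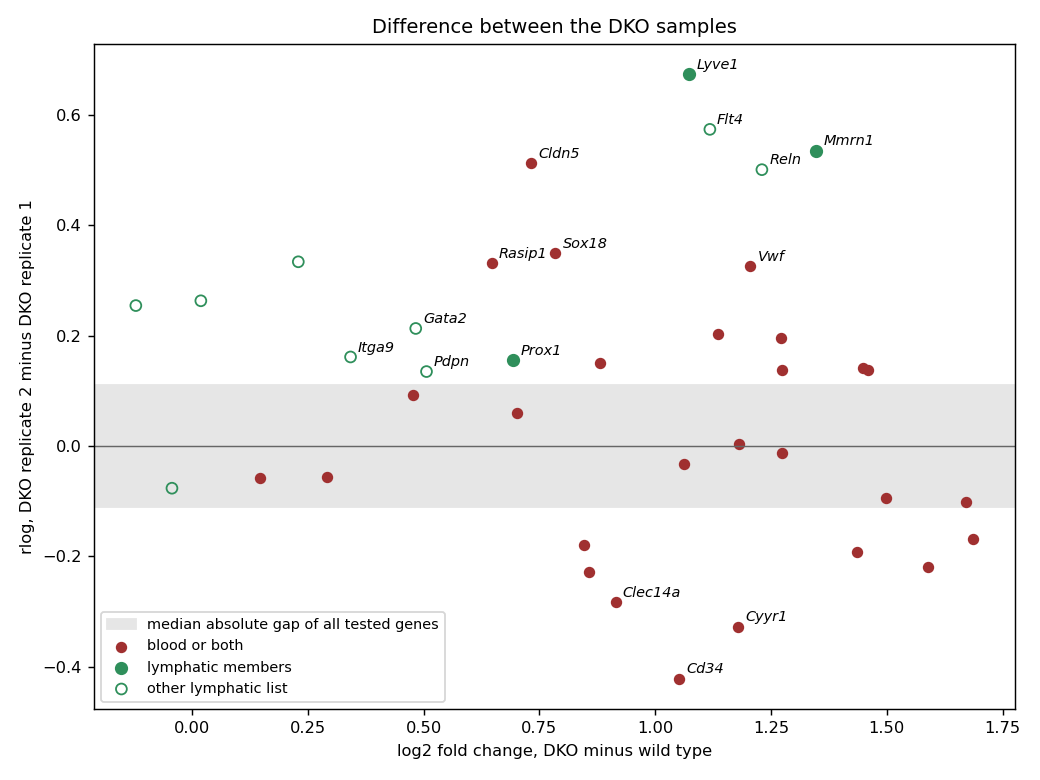
Rlog of DKO replicate 2 minus DKO replicate 1 (vertical axis) against the log2 fold change (horizontal axis) for the 30 tested endothelial genes and 9 other lymphatic genes, with a grey band of the median absolute gap of all tested genes, 0.111. Lyve1, Mmrn1, Flt4 and Reln, and the blood endothelial gene Cldn5 at 0.51, lie at 0.50 or above, and the other blood endothelial genes lie on both sides of 0.

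Other vessel genes were listed apart from the 32, and differences between the lists were not tested. Of 24 further pan-endothelial genes 23 were tested, 15 rose and 1 fell, with a median of 0.61. Kdr and Tie1, receptors for vascular growth factors and of the angiopoietin system, rose by 1.55 and 1.20, and Slco2a1, a prostaglandin transporter, by 1.5. The fall was S1pr1 (-0.29), which lymphocytes also express, and its call was lost when either wild-type sample was left out (adjusted p = 0.216 and 0.113). The 7 that did not pass were Calcrl (0.39), Gpr4 (0.38), Cd93 (0.097), Lmo2 (-0.0012), Hhex (-0.12), Bmx (-0.13) and Fli1 (-0.21), with adjusted p from 0.0742 for Calcrl to 0.996 for Lmo2. How far other cells of the mixture enter the values of these 7 genes was not tested. Of 12 arterial genes 11 were tested and 9 rose, led by Sema3g (1.18), but 5 rose without wild-type replicate 2. Of 15 venous and capillary genes 14 were tested, 12 rose, and 1, Rgcc, fell (-0.36, and -0.21 with adjusted p = 0.433 without wild-type replicate 2). Plpp3, a lipid phosphatase, rose by 1.27, the water channel Aqp1 by 1.10, and the endothelial selectins Sele and Selp, by which leukocytes tether to venules, by 1.3 and 1.44.

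Other lymphatic genes were divided. Of 13 listed, 9 were tested and 5 rose, with 3 rising without wild-type replicate 1, without wild-type replicate 2 or without DKO replicate 2. Reln, which lymphatic collecting vessels secrete, was at 5.93 and 6.01 in wild type and at 6.95 and 7.45 in DKO (log2 fold change 1.23). Flt4, the receptor for VEGF-C, was at 6.49 and 6.43 against 7.29 and 7.87 (1.12). In both, DKO replicate 2 was again the highest sample, as for Lyve1 and Mmrn1. Pdpn, Gata2 and Itga9, which are not confined to lymphatics, rose by 0.51, 0.48 and 0.34. The 4 that did not pass were Nrp2 (0.23), Stab1 (0.019), Fgl2 (-0.043) and Thy1 (-0.12). Their mean rlog was 10.42, 8.90, 11.37 and 13.14, against 7.02 for Flt4 and 6.59 for Reln. What other cells of the mixture add to these genes was not tested, so the list may not describe lymphatic endothelium alone. The median over the 9 tested genes was 0.34. Ccl21a was listed at 0 in all 4 samples.

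Genes of the cells around vessels moved alongside. Of 10 pericyte genes 9 were tested and 8 rose, with a median of 1.07 (5 rose with a robust variance and 0 with no filter on low values). All 12 fibroblast genes rose, with a median of 0.91 (4 with no filter). The difference between these lists was not tested. Of 7 mesothelial genes 6 were tested and 4 rose (2 without wild-type replicate 1), and of 10 mast cell genes 9 were tested, 4 rose and 1 fell, Hdc (7 rose without DKO replicate 2). All 13 neutrophil genes fell, with a median of -1.43 (8 with a robust variance and 1 with no filter). In limma 0 of 10 epithelial genes passed (1 at an unadjusted p under 0.05, and 1 fell without DKO replicate 1), 0 of 5 tested erythroid genes (1 unadjusted, and 2 rose without DKO replicate 2) and 0 of 12 housekeeping genes (2 unadjusted, and 2 fell without DKO replicate 2), whose median was -0.16.

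**Figure D4:**
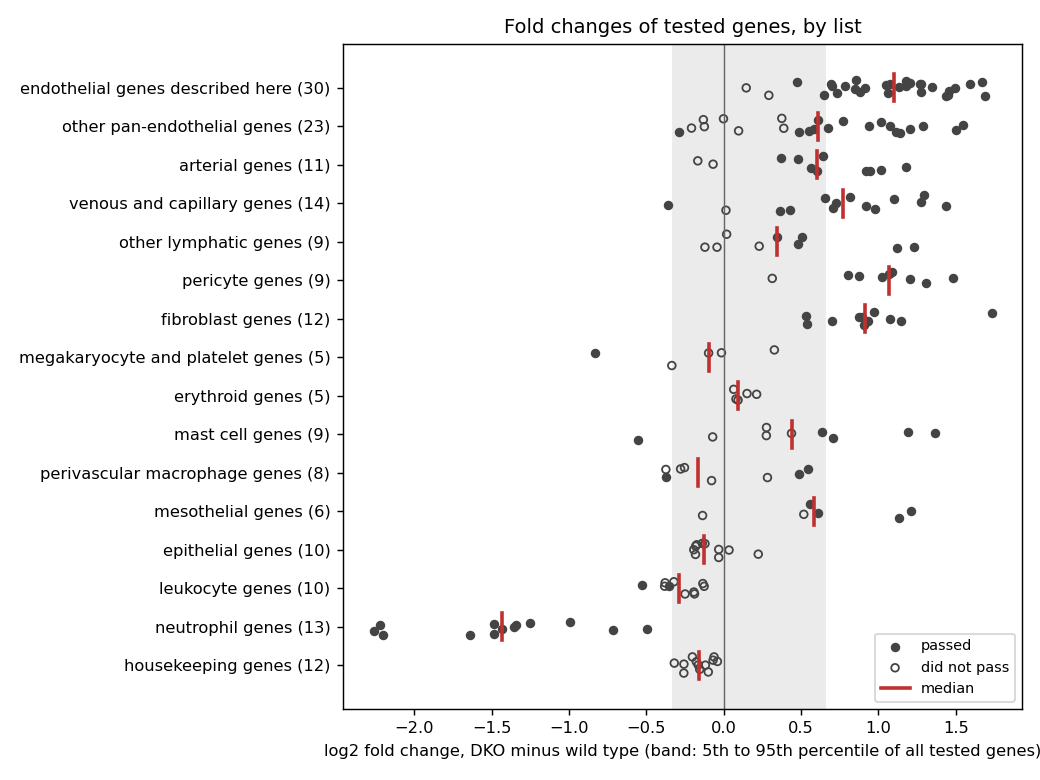
Log2 fold change (horizontal axis) of each tested gene in the endothelial list and 15 other lists, with the number tested in parentheses, filled points for genes that passed, red bars for medians and a grey band from the 5th to the 95th percentile of all tested genes. The endothelial genes centre on 1.10, pericyte genes on 1.07, epithelial genes on -0.13 and neutrophil genes on -1.43.

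Levels between genes were compared per length, as the mean rlog over the 4 samples less the log2 of the exon length in kilobases. Plvap was highest at 8.77, followed by Pecam1 at 8.17, Acvrl1 at 7.52 and Eng at 7.12. Cdh5 stood at 5.81. The lowest were Prox1 at 1.59, Aplnr at 1.78 and Tal1 at 1.81. Icam2 was at 6.75 and Podxl, with the largest fold change, at 5.90, so small and large fold changes were both found among the genes above Cdh5.

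The promoters of the members were searched for the letters that the members' own factors bind. The members were chosen by name, so matches describe this list of genes and not the difference between the groups. RefSeq windows on GRCm38.p6 were held for 15 of the 32 genes, 22 windows in all, of which the 250 bases before each start were read. AGGAAG, a form of the ETS site that Erg recognises, on either strand, was found in 11 of 22 windows (50%) and in 29.5% of all 32851 windows of that length. ACAAT, the core of the SOX site, was found in 7 of 22 (31.8%) and in 27.7% of all windows, and CAGNTG, a form of the E-box that Tal1 recognises, in 8 of 22 (36.4%) and 44.8%. No AGGAAG match overlapped an ACAAT match. Windows of one gene are not independent, and 13 of the 22 start more than 30 bases inside the gene as GENCODE draws it. Counted by gene, AGGAAG was found in 10 of 15 members (66.7%) and in 32.3% of all 27025 genes. ACAAT was found in 7 of 15 (46.7%) and in 30.9%, and CAGNTG in 7 of 15 (46.7%) and in 48.2%. The shorter GGAA within AGGAAG was found in 14 of 15 (93.3%) and in 94.2%. A gene with more windows has more chances of a match, and the 15 members held 22 windows, all 27025 genes 32851. Erg counts for AGGAAG only through a window that starts 127245 bases inside the gene. A match is a description of the letters, not of binding.

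The windows of Emcn (chr3:137340828-137341077), Adgrl4 (chr3:151437632-151437881), Adgrf5 (chr17:43360181-43360430) and Eng (chr2:32646345-32646594), all on the plus strand of GRCm38.p6, are printed 5′ to 3′ as examples that hold AGGAAG. These genes rose by more than 1 and have a start within 30 bases of the GENCODE start, as does Cd34, whose window is not shown. The 4 were chosen after their values were seen. Capitals mark the AGGAAG and ACAAT letters, read on either strand.
Emcn: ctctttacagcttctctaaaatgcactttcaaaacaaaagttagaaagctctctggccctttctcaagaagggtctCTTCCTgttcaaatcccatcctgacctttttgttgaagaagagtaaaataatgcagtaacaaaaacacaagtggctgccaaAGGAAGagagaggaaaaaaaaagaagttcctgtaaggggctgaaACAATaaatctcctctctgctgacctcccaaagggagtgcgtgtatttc
Adgrl4: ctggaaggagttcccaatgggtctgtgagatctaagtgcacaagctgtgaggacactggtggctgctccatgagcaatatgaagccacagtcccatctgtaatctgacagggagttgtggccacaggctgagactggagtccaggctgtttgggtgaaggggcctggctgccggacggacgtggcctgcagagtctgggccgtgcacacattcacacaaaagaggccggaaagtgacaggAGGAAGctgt
Adgrf5: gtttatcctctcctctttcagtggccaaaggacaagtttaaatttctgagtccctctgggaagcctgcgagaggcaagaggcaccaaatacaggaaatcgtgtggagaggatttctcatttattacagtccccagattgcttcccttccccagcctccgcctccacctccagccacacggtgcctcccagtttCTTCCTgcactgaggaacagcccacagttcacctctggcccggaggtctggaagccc
Eng: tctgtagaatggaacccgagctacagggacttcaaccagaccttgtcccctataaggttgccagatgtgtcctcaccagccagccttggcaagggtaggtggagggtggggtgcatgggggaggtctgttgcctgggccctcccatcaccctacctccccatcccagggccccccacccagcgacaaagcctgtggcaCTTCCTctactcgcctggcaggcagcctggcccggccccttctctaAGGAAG
Emcn holds 2 AGGAAG matches, beginning 174 and 93 bases before the start, and 1 ACAAT match 49 bases before it. Adgrl4 holds 1 AGGAAG match 10 bases before the start, Adgrf5 holds 1 at 57 bases, and Eng holds 2, at 52 and 6 bases. Whether fold changes go with these letters was not tested. Genes whose windows hold AGGAAG rose by 0.65 (Rasip1) to 1.67 (Adgrf5). The windows of Mmrn1, Clec14a and Prox1 hold no AGGAAG, and these genes rose by 1.35, 0.91 and 0.69. The Mmrn1 window starts 19341 bases inside the gene as GENCODE draws it. Tal1, also without AGGAAG, was under the minimum for testing. The window of Cldn5, which rose by 0.73, holds neither AGGAAG nor the shorter GGAA, which 93.4% of all windows hold.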

How the data were processed

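The authors deposited log2 values, named rlog in the table's title, which is the regularized log2 that DESeq2 computes. Per the submitters' processing notes, the tools were STAR 2.5.4a, BWA 0.7.14-r1136, Subread 1.5.2 (featureCounts), cutadapt 1.9.1, bcl2fastq 2.17.1.14 and DESeq2, and the build was GRCm38. What each tool did, and whether counting used strand, is not stated. A further 2 columns of the table fit no label and were left out, though the shrinkage may have included them.

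Of 48526 identifiers, 48058 matched GENCODE M21 on GRCm38, which gave symbols, positions and exon lengths. Groups came from the labelled treatment. Replicates were numbered in order of entry and pair no samples. The 13528 genes whose mean rlog reached 4 were fitted in limma 3.58.1 (R 4.3.3) with group as the only term and empirical Bayes moderation with a variance trend. Two-sided p-values were adjusted over all tested genes by the Benjamini-Hochberg method, with a threshold of 0.05. The code was tested on simulated data. Python 3.11.15, pandas 2.3.3 and matplotlib 3.10.9 made tables and figures.

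The members and the 15 other lists were chosen with earlier results of these data known. All 32 members are named. Other lists give up to 4 genes with the smallest p, those against the list's direction, and some chosen after their values were seen. The last were the pan-endothelial and other lymphatic genes that did not pass, Itga9, Ackr1, Vcam1, Car4 and genes listed at or near 0. Alternatives were other filters, no trend, a robust variance, median centring, quantile normalization, sample weights and leaving out each sample. Promoters are RefSeq's on GRCm38.p6. Counts and depth were not analysed here, and the values of 1 gene of the lists are not reported here.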

Additional observations from a re-analysis of the deposited data

How the results depend on the processing

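Across the alternatives, all tested members kept their direction. The 28 rises stayed at 28 with a robust variance, without the variance trend, with median centring, with sample weights and in each fit without 1 sample, and were 27 (Cldn5 lost) with quantile normalization and 20 of 22 tested at a mean rlog of at least 6. Falls stayed at 0. Other lists lost more: with no filter, rises were 0 of the pericyte, other lymphatic, mast cell, macrophage and mesothelial genes, 2 arterial, 5 venous and capillary and 4 fibroblast genes, and 1 neutrophil gene fell. With a robust variance 5 pericyte and 2 mesothelial genes rose and 8 neutrophil genes fell. With no filter on the mean, 6 of 32 members, 5 of 24 further pan-endothelial genes, 181 genes higher and 25 lower over all were called. With neither filter nor variance trend, an alternative chosen after seeing the data, these were 0 (29 of the 32 at an unadjusted p under 0.05), 2, 31 and 2. That setting adds genes of very low level to the variance estimate and to the adjustment, and the cause of the lower counts was not tested. For genes higher in DKO over all tested, the count at a mean of at least 6 was 878. Without 1 sample, genes lower in DKO over all tested ran from 324 (without wild-type replicate 2) to 1222 (without DKO replicate 2), with 421 without wild-type replicate 1, genes higher from 1008 to 1660, and further pan-endothelial genes higher from 14 to 16, against 656, 1342 and 15. Those fits take the spread of the single sample left in a group from the other group. No paired analysis was possible because the labels give no replicate numbers. With 2 samples a group and an unknown depth, genes below a mean rlog of 4, such as Tal1 and Aplnr, are beyond what these values resolve.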
